A study of Mus musculus with 20 samples.

Results

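The genes described here encode the proteins of the large (60S) subunit of the ribosome. They were taken by gene name: introns whose transcript carries an Rpl or Rplp symbol in the GENCODE mouse annotation (release M21, GRCm38). That gave 216 introns of 49 genes, out of 68794 introns of 8397 genes in the deposited table. The annotated symbols Rpl10l, Rpl39l and Rpl3l had no line in it. The cells were wild-type murine erythroleukemia (MEL) cells, a mouse line of red blood cell precursors that resumes maturation when exposed to dimethyl sulfoxide (DMSO). The uninduced group had no DMSO and the induced group had 2% DMSO for 5 days, and each had 2 biological replicates that were run on 2 PacBio instruments. RNA was taken from the chromatin fraction and cleared of polyadenylated and ribosomal RNA, so that reads should come mostly from unfinished transcripts. The tables give 1 pooled value per intron and condition, without values for replicates. Every test below therefore compares 2 pools of libraries, not 2 conditions, and every interval covers counting error only. The other 12 samples of the series, from MEL cells given a human beta-globin gene and from run-on sequencing, were not analysed here.

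Ribosomal protein genes are among the most strongly transcribed genes of growing cells. They are short, begin at a tract of pyrimidines that places their mRNAs under growth-dependent translation (the TOP class), and often carry small nucleolar RNAs (snoRNAs) inside their introns, which are cut out of the spliced intron. Maturing red cell precursors stop dividing, shrink and finally lose their ribosomes. Ribosomal protein genes also have many intronless copies in mammalian genomes, and how reads that match several places were treated is not given in the sources used here.

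A read is taken here to count at each intron it covers, though the counting rule is not given in the sources used. The uninduced pool held 358493 spliced and 57886 unspliced observations over all introns, and the induced pool 240664 and 38707. Globin genes took 0.0989% of them before and 1.51% after induction. All 12 erythroid markers checked were listed, with 1103 observations before and 10300 after induction. Of 7 markers of other blood cells 2 were listed, with 105 and 0 observations.

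The measure of splicing was the co-transcriptional splicing efficiency (coSE), the fraction of reads over an intron that were already spliced. The sequences below are the splice sites of the introns on which the results turn: the 4 that were least spliced among those with at least 20 reads, then the 10 whose coSE fell after induction. Each 5′ site spans 3 exonic and 6 intronic bases and each 3′ site 20 intronic and 3 exonic bases, printed 5′ to 3′ on the transcribed strand as deposited. Capitals mark the first and the last 2 bases of the intron.

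Rpl41 intron 1, 5′ site: ttgGTtagt
Rpl41 intron 1, 3′ site: ttccctctttctctctagAGact
Rpl21 intron 3, 5′ site: aagGTaagt
Rpl21 intron 3, 3′ site: atactttttctgttgactAGgga
Rpl21 intron 4, 5′ site: taaGTgagt
Rpl21 intron 4, 3′ site: ccggtctttgctcattccAGggg
Rpl3 intron 3, 5′ site: ctgGTaaga
Rpl3 intron 3, 3′ site: actgtgctctgctcctgaAGgca
Rplp0 intron 6, 5′ site: aagGTaagg
Rplp0 intron 6, 3′ site: actgccttttctccctcaAGgtc
Rpl4 intron 3, 5′ site: aatGTatcc
Rpl4 intron 3, 3′ site: attcttgacaaagaaaacAGatg
Rpl4 intron 4, 5′ site: aagGTctga
Rpl4 intron 4, 3′ site: tattaaattggttttgttAGgtc
Rpl6 intron 3, 5′ site: atgGTgaga
Rpl6 intron 3, 3′ site: ggtgccggtgctctctccAGcct
Rpl6 intron 6, 5′ site: gagGTgagc
Rpl6 intron 6, 3′ site: gtttccttttctctgtttAGaaa
Rpl9 intron 7, 5′ site: cagGTgggt
Rpl9 intron 7, 3′ site: catgtgtgtttgttttacAGttc
Rpl32 intron 3, 5′ site: caaGTgagt
Rpl32 intron 3, 3′ site: ctggtttgcttctctttcAGatc
Rpl36a intron 2, 5′ site: aggGTaagc
Rpl36a intron 2, 3′ site: taacgagtaactttttccAGgaa
Rpl41 intron 2, 5′ site: aagGTgagc
Rpl41 intron 2, 3′ site: acatgatcgggtttttttAGtgg
Rpl41 intron 3, 5′ site: cagGTacgt
Rpl41 intron 3, 3′ site: ttgtgtgccttccattccAGgct

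Over the 198 introns of these genes in the second deposited table, the median deposited score was 9.16 for the 5′ site and 8.50 for the 3′ site, against 8.78 and 8.70 over all 6537 scored introns (what the scores are made from is not stated, and higher is taken as closer to the consensus). The introns began with GT in 197 of 198 and ended in AG in 198 of 198, and Rpl37a intron 2 was the exception, with a GC at its start. The lowest scores of the 198 for either site were those of Rpl4 intron 3, at 1.97 and -7.23: its last 18 bases before the AG hold 7 pyrimidines, where Rpl6 intron 6 has 16. Rpl41 intron 1 is unusual in another way, since its 3′ site holds AG at the intron's last 2 bases directly after another AG, and it scored 2.79. Rpl21 intron 3, in contrast, has a 5′ site that scored 11.0 and was spliced in hardly any read. One 9-base 5′ site, atgGTgagt, was shared by at least 9 introns of these genes.

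The introns were short and rich in G and C. Their median length was 342 bases, from 78 to 2955, against 1226 bases over all introns, and their median GC content was 48.1% against 43.9%. The small-subunit genes, 117 introns of 29 Rps genes, were alike, at 369 bases and 48.3%. Annotated snoRNAs lay inside 39 introns of 20 large-subunit genes, 18.1% of the introns against 0.327% of all introns. In the Rps genes they lay inside 13 introns (11.1%). The 37 host introns with at least 10 uninduced reads had a median coSE of 0.900, and the 170 without a snoRNA 0.961. The gap depends on the summary. With uninduced reads added together over introns with 10 reads in both pools, 27 hosts were at 0.923 and 131 others at 0.929. Whether a snoRNA and its precursors add to the unspliced count of the host intron was not tested.

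Across introns with at least 10 reads, large-subunit introns were mostly spliced by the time they were read. The median coSE was 0.956 over 207 introns before and 0.926 over 158 introns after induction. Over all introns it was 0.933 and 0.947. On the 158 introns with 10 reads in both pools the members' median was 0.965 before and 0.926 after induction, against 0.942 and 0.952 over all 4403 such introns. The order after induction depends on the summary. With all reads of every listed intron added together, without a read minimum, members were at 0.920 and 0.864 and all introns at 0.861 and 0.861. The mean over introns with at least 10 reads was 0.871 and 0.876 for members and 0.855 and 0.865 for all introns, over different introns in each pool. On the introns with 10 reads in both pools the mean was 0.916 and 0.876 for members and 0.866 and 0.876 for all introns. The medians of the Rps introns were 0.968 and 0.933. A coSE over 0.9 was found for 148 large-subunit introns (71.5%) before and 91 (57.6%) after induction, against 59.3% and 60.7% of all introns. The fullest splicing was at the single tabulated intron of Rpl35 (chr2:39004869-39005083), spliced in 586 of 586 uninduced reads, which allows up to 0.512% unspliced, followed by Rpl37a intron 3 (207 of 207) and Rpl8 intron 3 (175 of 175). In the induced pool 37 member introns (23.4%) were spliced in every read, against 43.1% of all introns, shares that depend on depth. Of the 37, those with the most reads were in Rpl14: 110 of 110 at intron 1, 109 of 109 at intron 3 and 92 of 92 at intron 5. A handful of genes made a low tail: 16 introns (7.73%) had an uninduced coSE under 0.5, a share close to the 7.26% of all introns.

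**Figure D1:**
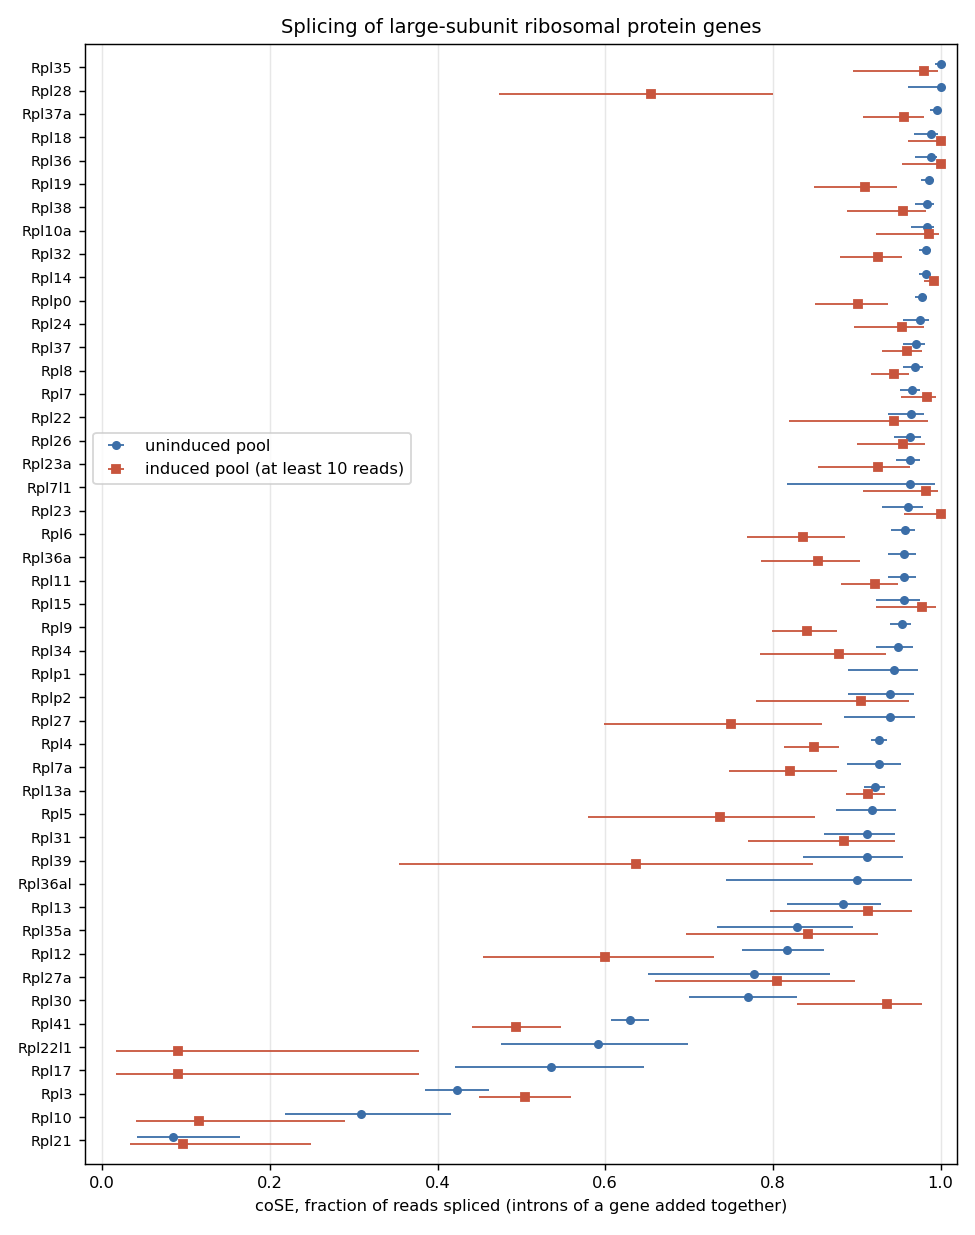
coSE (fraction of reads spliced, horizontal axis) of large-subunit genes, with the introns of a gene added together. Circles give the uninduced pool and squares the induced pool, where it had at least 10 reads. Bars are Wilson 95% intervals, too narrow because a read is taken to count at several introns. Most genes lie above 0.9 before induction, and Rpl21, Rpl10, Rpl3, Rpl17, Rpl22l1 and Rpl41 lie lowest, the last through its intron 1.

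The stalk genes Rplp0, Rplp1 and Rplp2 encode the acidic arm that brings translation factors to the ribosome. Their summed introns were spliced in 1903 of 1947 reads (0.977), 118 of 125 (0.944) and 140 of 149 (0.940) before induction. After induction the values were 165 of 183 (0.902), 8 of 8 and 38 of 42 (0.905). Rpl12, at the base of the stalk, was spliced less, at 196 of 240 reads (0.817) and 27 of 45 (0.600). Within Rpl12 the low value sat at intron 4 (chr2:32963067-32963496), a snoRNA host spliced in 29 of 51 uninduced reads (0.569, Wilson 95% interval 0.433 to 0.695) while the other introns ranged from 0.792 to 0.946. Rpl12 and Rpl3 are both known in other systems to limit their own expression through alternative splicing of their transcripts.

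Rpl3, whose product reaches towards the peptidyl transferase centre, was the most deeply read of the genes that were poorly spliced along their length. Its 9 introns together were spliced in 275 of 650 uninduced reads (0.423) and 160 of 317 induced reads (0.505). From intron 1 to intron 9 the uninduced coSE ran 0.459, 0.398, 0.153, 0.592, 0.272, 0.738, 0.639, 0.531 and 0.571, so that no intron reached the list's median. Intron 3 (chr15:80081032-80081614, minus strand, between coding exons, present in 3 of 5 spanning transcripts) was the lowest, with 17 of 111 reads spliced before (interval 0.0979 to 0.232) and 1 of 60 after induction (0.0167, interval 0.00295 to 0.0886). Its change of -0.136 missed the threshold (Fisher's adjusted p = 0.159). Intron 5 (chr15:80079851-80080365) went from 22 of 81 (0.272) to 23 of 42 (0.548), and this too missed it (Fisher's adjusted p = 0.148). Intron 2 was spliced in 53 of 133 reads before and 32 of 61 after induction (0.525), the third lowest induced value among introns with at least 20 reads.

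Rpl41 encodes the shortest protein of the ribosome and had the most reads per intron of all 49 genes. Its 3 introns differed sharply from one another. Intron 1 (chr10:128548972-128549087, minus strand, 5′ UTR) was spliced in 8 of 603 uninduced reads (0.0133, interval 0.00674 to 0.0260) and in 0 of 117 induced reads, while introns 2 and 3 were spliced in 555 of 591 (0.939) and 561 of 590 (0.951) uninduced reads. Intron 1 is annotated in 2 of 7 transcripts that span it, and the forms the unspliced reads came from were not tested. Among introns with at least 20 reads it had the lowest coSE in both pools.

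Rpl21, Rpl10, Rpl17 and Rpl22l1 were read less deeply, and their introns added together were spliced in a small or moderate share of uninduced reads. Rpl21 had 7 of 83 reads spliced over its 5 introns before (0.0843) and 3 of 31 after induction (0.0968). Intron 4 (chr5:146835105-146835563) was spliced in 1 of 26 uninduced reads and intron 3 (chr5:146834510-146834991) in 2 of 22. Rpl10, which joins the subunit late in its maturation, had 25 of 81 (0.309) and 3 of 26 (0.115). Rpl17, whose product lines the exit tunnel, had 38 of 71 (0.535) and 1 of 11. Rpl22l1, a paralogue of Rpl22, had 42 of 71 (0.592) and 1 of 11, with intron 3 the most spliced before induction (23 of 29, 0.793), while Rpl22 itself was spliced in 295 of 306 reads (0.964) and 34 of 36.

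Rpl5 and Rpl11 form a particle with 5S rRNA that also binds Mdm2, the inhibitor of p53. Rpl11 was spliced in 552 of 577 reads (0.957) and 225 of 244 (0.922), and Rpl5 in 212 of 231 (0.918) and 28 of 38 (0.737). In Rpl11 the uninduced coSE was between 0.949 and 0.985 at introns 1 to 4 and 0.849 at the last intron.

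The main comparison asked whether an intron was spliced in a different share of reads after induction. A two-sided Fisher's exact test was run on the spliced and unspliced reads of each intron with at least 10 reads in both pools, with Benjamini-Hochberg adjustment over all 4403 such introns. Of these, 158 introns of 41 genes were members; the other 58 had fewer than 10 induced reads, and 9 of them also had fewer than 10 uninduced reads. The coSE of 10 large-subunit introns in 7 genes fell and that of 0 rose, at an adjusted p under 0.05. Over all introns 1.25% fell and 0.363% rose. Part of that contrast goes with depth: among the 239 introns with at least 50 reads in each pool 10.5% fell and 1.67% rose, and of the 41 members among them 5 fell and 0 rose, close to that background. Introns of a gene can share reads, so their tests are not independent. At an unadjusted p under 0.05 there were 32 members, 31 of them lower, against 351 introns in all, 193 of them lower. The count depends on the introns tested: it was 5 with no read minimum, where Rpl6 introns 3 and 6, Rpl4 intron 3, Rpl9 intron 7 and Rpl36a intron 2 no longer passed, and 5 among introns found in all spanning transcripts. A chi-square test gave 17.

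**Figure D2:**
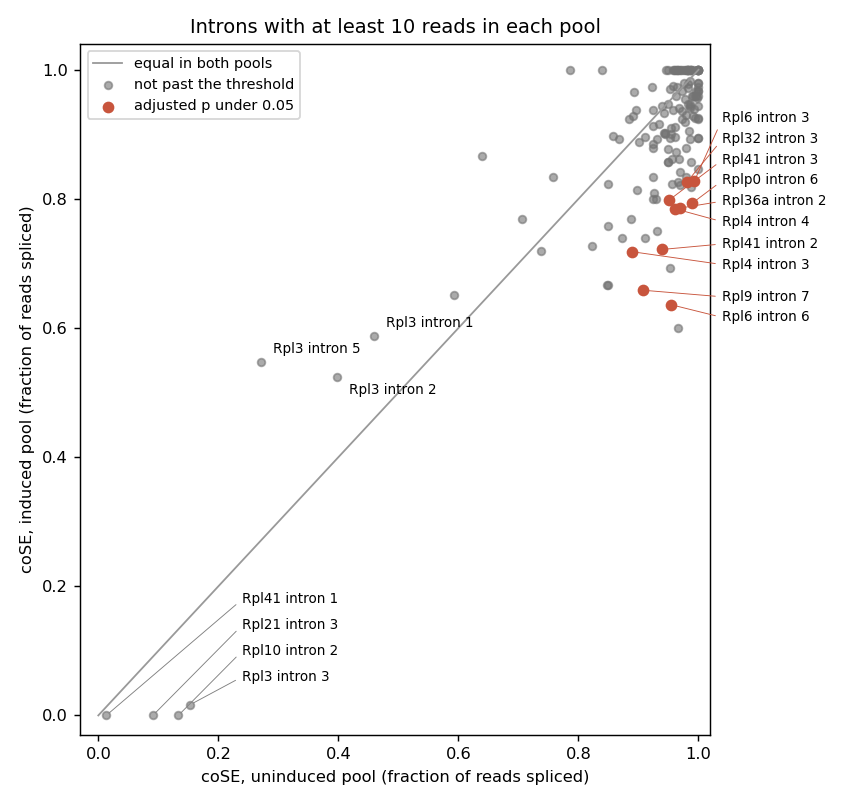
coSE in the induced pool against coSE in the uninduced pool (fraction of reads spliced) for the 158 introns with at least 10 reads in each pool. The 10 introns past the threshold (red) start between 0.889 and 0.993 and end between 0.636 and 0.828, below the line of equal values.

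The clearest change was in Rpl41. At intron 2 (chr10:128548681-128548948, between coding exons) 555 of 591 uninduced reads were spliced, and 83 of 115 induced reads. The coSE thus fell from 0.939 (interval 0.917 to 0.956) to 0.722 (interval 0.634 to 0.795), a difference of -0.217 (95% Newcombe interval -0.307 to -0.140, Fisher's adjusted p = 3.55e-07). Intron 3 (chr10:128548430-128548657) fell from 0.951 to 0.798, on 590 and 104 reads (difference -0.153, interval -0.241 to -0.0838, Fisher's adjusted p = 0.000468). The intervals of the pools do not overlap at either intron.

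In the stalk, Rplp0 intron 6 (chr5:115562567-115563282, the last intron, between coding exons) fell from 272 of 275 reads (0.989) to 23 of 29 (0.793, interval 0.616 to 0.902), with a Fisher's adjusted p of 0.00415. The other 5 introns of Rplp0 did not pass the threshold. Their induced coSE ran from 0.862 to 1, so the last intron was the lowest of the gene after induction.

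Rpl4 lines the exit tunnel of the ribosome with a long loop and hosts snoRNAs in 5 of its 9 introns. Intron 4 (chr9:64175723-64176091) fell from 324 of 337 reads (0.961) to 51 of 65 (0.785, Fisher's adjusted p = 0.00193). Intron 3 (chr9:64175301-64175583), the host of Snord16a with the weakest sites of the set, fell from 360 of 405 (0.889) to 51 of 71 (0.718, Fisher's adjusted p = 0.0361). Intron 5, next to them, was spliced in 289 of 300 reads before and 49 of 49 after induction. That difference of the opposite sign did not pass the threshold.

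Rpl6 and Rpl9 had lower values along the whole gene. All 6 introns of Rpl6 were lower after induction and 2 passed: intron 3 (chr5:121205856-121206666) fell from 143 of 144 reads (0.993) to 24 of 29 (0.828, Fisher's adjusted p = 0.0361), and intron 6 (chr5:121208576-121208781) from 82 of 86 (0.953) to 14 of 22 (0.636, Fisher's adjusted p = 0.0236). The difference of -0.317 at intron 6 was the widest of the 10. In Rpl9, whose product sits near the base of the stalk, the induced coSE from intron 1 to intron 7 ran 0.930, 0.872, 0.911, 0.897, 0.824, 0.750 and 0.659, against 0.908 to 0.980 before induction. Only its last intron (chr5:65388442-65388561, minus strand, 3′ UTR, in 4 of 8 spanning transcripts) passed, with 99 of 109 reads spliced before and 27 of 41 after induction (Fisher's adjusted p = 0.0447).

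Rpl32 and Rpl36a gave 1 intron each. Rpl32 intron 3 (chr6:115805689-115806985, minus strand), the last of the gene, fell from 367 of 374 reads (0.981) to 43 of 52 (0.827, Fisher's adjusted p = 0.00323), while introns 1 and 2 were at 0.983 before and at 0.972 and 0.947 after induction. Rpl36a intron 2 (chrX:134586184-134586510) fell from 155 of 160 (0.969) to 33 of 42 (0.786, Fisher's adjusted p = 0.0253). The nearest miss was the last intron of Rpl19 (chr11:98029886-98030270), at 0.988 before and 0.818 after induction on 160 and 22 reads (Fisher's adjusted p = 0.105).

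Over all tested members, those past the threshold included, the differences leaned the same way. The coSE was lower after induction at 101 of the 158 introns, higher at 49 and equal at 8, so that 63.9% were lower. Of all 4403 introns, 1534 were lower (34.8%), 1879 higher and 990 equal. The median difference was -0.0301 for the members and 0 for all introns. In 15 of 41 genes every tested intron was lower, and in 2 every one was higher. Rpl10, Rpl12, Rpl21 and Rpl35, among the 15, had 1 tested intron each. Of the 21 genes with at least 4 tested introns, 4 were lower throughout. The same shares over all genes were not computed. Rpl23 was the 1 gene with at least 4 tested introns that was higher throughout: all 83 of its induced reads were spliced, against 247 of 257 before. When the reads of a gene's introns were added together, 16 of 46 genes fell and 0 rose, where 3.80% of 3529 genes fell and 7.08% rose. Among those that fell were Rpl4, Rpl5, Rpl6, Rpl7a, Rpl9, Rpl12, Rpl19, Rpl22l1, Rpl27, Rpl28, Rpl32, Rpl36a, Rpl37a, Rpl41 and Rplp0. Rpl28 went from 96 of 96 to 19 of 29 reads, with no intron deep enough to be tested alone. A long read is taken to count at each intron it crosses, so these gene sums are not independent counts and their p-values are too small. The 3529 genes were not matched to the members for depth, which went with the share of falls among single introns.

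Position in the gene went with the size of the difference. Among introns tested in both pools, the median difference was -0.00109 for the 31 first introns, with 0 falls, -0.0367 for the 98 middle introns, with 5, and -0.0640 for the 28 last introns, with 5. Over all introns, where many values were equal, each of these medians was 0, and 8 of 772 first, 34 of 3393 middle and 13 of 220 last introns fell. The mean difference was lowest at last introns in both sets: for first, middle and last introns it was -0.00721, -0.0398 and -0.0776 in members and 0.00398, 0.0145 and -0.0394 over all introns. A difference in this pattern between members and other introns was not tested. In the 25 large-subunit genes with both a first and a last intron tested, the last had the lower difference in 18 and the first in 7. Before induction the medians of these first and last introns were nearly level, at 0.980 and 0.981, and after it they were 0.968 and 0.913.

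**Figure D3:**
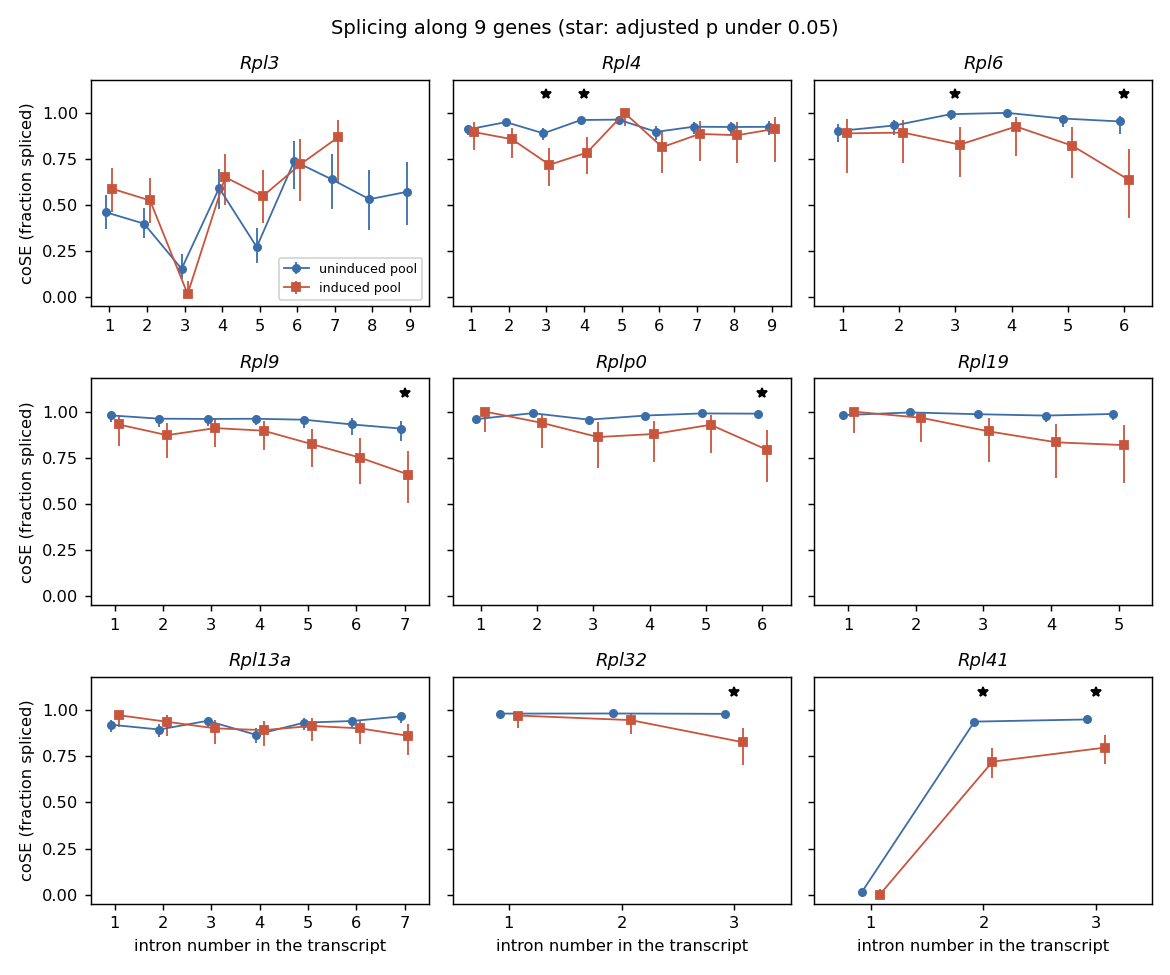
coSE (fraction of reads spliced, with Wilson 95% intervals) against intron number from the 5′ end for 9 genes, in the uninduced (circles) and the induced pool (squares), for introns with at least 10 reads; stars mark an adjusted p under 0.05. Rpl9 declines along the gene after induction to 0.659 at intron 7, Rpl3 is lowest at intron 3 in both pools, and Rpl13a and Rpl19 have no intron past the threshold.

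Related gene lists give the setting. Of 95 tested Rps introns 11 fell and 0 rose, and their median difference was -0.0346. Of 81 tested introns of translation factors of the TOP class 12 fell and 0 rose, namely 6 of Eef1a1, 3 of Eef2 and 3 of Rack1. Of 57 tested introns of factors that assemble the large subunit 0 fell and 1 rose, Ppan intron 2. These counts are descriptions, and a difference between the lists was not tested.

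The second table counts splicing intermediates, taken here as RNAs cut at the 5′ splice site whose exons are not yet joined. Added together, the large-subunit introns had 221 intermediates in 25242 intermediate or spliced reads (0.876%) before and 72 in 4391 (1.64%) after induction. Over all introns the shares were 2.71% and 4.35%, and over Rps introns 0.809% and 1.11%. In the uninduced pool 71 of 196 large-subunit introns (36.2%) had at least 1 intermediate, as did 36.2% of all introns, and in the induced pool 34 of 125 (27.2%), against 37.8%. These shares depend on depth, which differed: over introns that met the minimum of 10 reads for coSE, the uninduced median was 89 reads for members and 16 for all introns. As a mean over introns, large-subunit intermediates made up 2.20% before and 2.04% after induction, against 4.31% and 4.40% over all introns. Both summaries cover different introns in each pool, 196 members before and 125 after induction. Those without an induced value include Rpl21 intron 5 (4 intermediates in 5 uninduced reads) and Rpl3 intron 8 (10 in 22). A mean over the same introns was not computed, so its order cannot be read as a change.

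Among introns with at least 20 reads, Rpl3 held the 3 highest uninduced shares and the highest induced one. In the uninduced pool its intron 8 (chr15:80078107-80078330) had 10 intermediates in 22 reads (45.5%, interval 26.9% to 65.3%), intron 5 had 4 in 21 and intron 6 had 4 in 26. In the induced pool its intron 4 had 4 in 29 (13.8%), followed by Rpl32 intron 3 with 5 in 40 (12.5%) and Rpl4 intron 5 with 5 in 48 (10.4%). With so few reads these shares carry wide intervals, for Rpl32 from 5.46% to 26.1%.

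A Fisher's exact test on intermediates and spliced reads of the 123 large-subunit introns listed in both pools found 1 intron with a higher share after induction and 0 with a lower share, where 0.0981% of all 2039 introns were higher and 0% lower. At an unadjusted p under 0.05 there were 2 members and 34 introns in all. The intron was Rpl41 intron 3, with 1 intermediate in 562 reads before and 6 in 80 reads after induction (7.50%, interval 3.48% to 15.4%, Fisher's adjusted p = 0.0406). Its coSE fell as well, as given above, although the spliced reads enter both measures.

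Intermediates were not seen at first introns of these genes. The 38 first introns had 0 in 5101 uninduced reads, which allows a share of up to 0.0588%, and the 24 listed in the induced pool had 0 in 902, which allows up to 0.333%. Middle introns had 0.910% and 1.76%, and last introns 1.85% and 3.37%. First introns of all genes had 0.332% and 0.422%. An intermediate of a first intron is as short as the first exon, with a median of 78 bases upstream of the splice site in these genes and 497 bases for last introns. Where 100 or fewer exonic bases lay upstream, members had 0 intermediates in 5554 uninduced reads and all introns had 1 in 12733; with over 200 and up to 400 bases the shares were 1.03% and 2.05%. This grouping was made after the data had been examined, and whether short molecules were lost in library preparation was not tested.

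**Figure D4:**
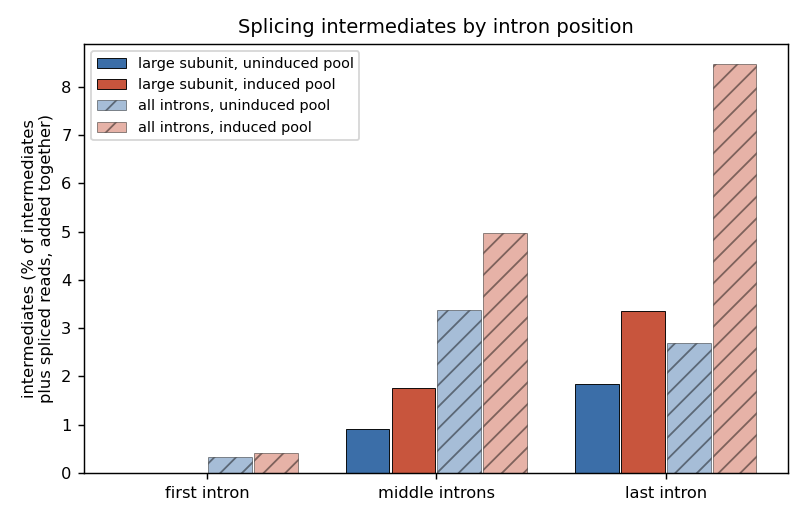
Share of splicing intermediates (percent of intermediate plus spliced reads, added together) at first, middle and last introns, for the large-subunit genes (solid bars) and all introns (hatched bars), in both pools, without error bars. Large-subunit first introns are at 0, and last introns reach 1.85% and 3.37%.

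Nascent reads over these genes were fewer after induction. The large-subunit introns took 6.82% of all observations before and 2.30% after induction. Measured as mean reads per intron scaled to the pool's total (reads per intron in 1000000 observations), 48 genes passed a minimum of 10 mean reads in one pool (Rpl29, with 2 reads, did not). Of the 48, 35 met it in both pools, 12 in the uninduced pool alone and 1 in the induced pool alone, so that the latter ones passed only through the pool in which they were high, and the counts and medians that follow are descriptions of genes partly chosen by level. Of these, 46 were lower and 2 higher in the induced pool. The median log2 fold change was -1.50, a level 2.83-fold lower, against -0.458 over 1255 genes, -1.52 over 28 Rps genes, -0.883 over the translation factors and -0.512 over the assembly factors. A level over 2-fold lower was found for 36 of the 48, where 34.2% of all genes were, and a level over 2-fold higher for 1, where 15.5% were. With 1 pool a group these values have no test, and fewer cells transcribing a gene and less RNA per cell cannot be told apart.

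The genes with the most reads were Rpl41, at 1428 before and 401 after induction, and Rpl35, at 1407 and 179. Among the largest differences was that of Rpl35 (log2 -2.98). Rplp1 was at 150 and 14.3 (log2 -3.39), but its induced value rests on 8 reads over 2 introns and it passed the minimum only through the uninduced pool. Rpl3, Rpl7a and Rpl8 were nearest to level among the lower genes, with log2 values of -0.46, -0.37 and -0.40. The exceptions were Rpl7l1, a paralogue-like gene with a role in ribosome assembly, at 21.6 and 68.0 (log2 1.65; a mean of 9 and 19 reads, so that it passed only through the induced pool), and Rpl27a, at 32.4 and 36.7 (log2 0.18). Rpl7l1 was close to fully spliced, in 26 of 27 and 56 of 57 reads. All 58 members left out of the test of coSE had fewer than 10 induced reads.

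**Figure D5:**
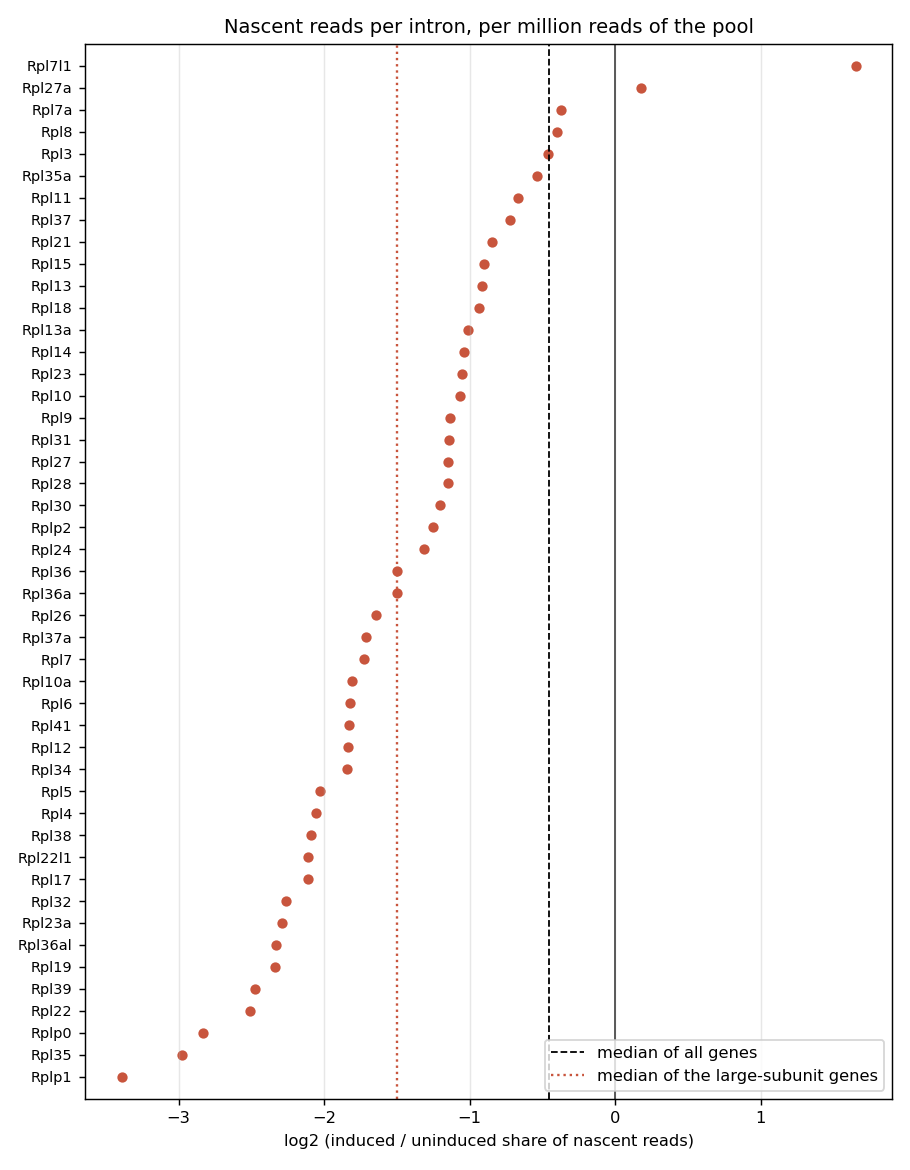
Difference in read share of 47 of the large-subunit genes, as the log2 ratio of the induced to the uninduced pool (mean reads per intron scaled to the pool's total). Points left of 0 are lower after induction, 45 of the 47 drawn; the dotted line is the large-subunit median of -1.50 and the dashed line the median of all genes at -0.458.

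Across members, coSE followed other features only loosely, given here without tests because introns of a gene can share reads. Spearman's rho with intron length was 0.04 over 207 uninduced and 0.05 over 158 induced introns, against 0.37 and 0.38 over all introns. With GC content it was 0.33 and 0.22, over 198 and 157 introns, against -0.09 and -0.13. With the 5′ site score it was 0.04 in both pools. The coSE of the same intron in both pools had a rho of 0.56 over 158 members and 0.56 over all 4403 introns.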

How the data were processed

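Long-read sequencing of chromatin-bound RNA from uninduced and induced MEL cells was used, as a pair of deposited tables with 1 line per intron and condition. Which runs the authors added together, and their counting rule and filters, are not given in the sources used here; per the submitters' processing notes the tools were cutadapt, minimap2, SAMtools, bedtools and Bowtie, and the builds mm10 and dm3, without roles. Per the file headers the first table gives raw counts of spliced and of unspliced reads. The other holds counts of spliced reads and intermediates, the deposited fraction of intermediates (NIC), a deposited percent of GC, taken as that of the intron, and a deposited score and sequence for each splice site, some in lower case and all read without regard to case. NIC was recomputed from the deposited counts.

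All 8397 transcripts were matched to GENCODE M21, 8158 of them in the same version. Adding 2 to the start and taking 1 from the end gave the printed 1-based GRCm38 positions. coSE was computed as spliced over spliced plus unspliced reads. Introns with at least 10 reads in both pools entered a two-sided Fisher's exact test (scipy 1.17.1) with Benjamini-Hochberg adjustment over the whole table (statsmodels 0.14.6) and a threshold of 0.05. The same test was run on intermediates and spliced reads. The scripts were tested on simulated counts. Shares carry 95% Wilson intervals, differences Newcombe intervals, and a count of 0 allows 3 counts. The use of molecular identifiers in counting is not given in the sources used here, so these cover counting error only. Read share is a description, with 2-fold as its threshold. Alternatives were other read minimums, a chi-square test, introns in all spanning transcripts, sums per gene, sets without Rpl41 or the Rplp and paralogue-like genes, and other ways of averaging.

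The members and lists were chosen with earlier results of these data known. Named introns are those past a threshold, the 3 nearest misses, the 3 highest and lowest coSE and the 3 highest NIC values per pool among introns with at least 20 reads, and the 3 genes with most reads and with the largest differences of read share; other introns and genes named to describe the list were chosen after their values were seen. The values of 1 gene are not reported here by name and not drawn by gene; it stays in all counts and medians.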

Additional observations from a re-analysis of the deposited data

How the results depend on the processing

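The count of 10 introns whose coSE fell became 5 with no read minimum, 17 with a chi-square test, 5 among introns found in all spanning transcripts and 16 when introns were added per gene; the first adjusts over more introns and the third tests fewer. It was 11 at 20 reads, 9 without the Rplp and paralogue-like genes and 8 without Rpl41, and no alternative gave a rise. With no read minimum Rpl6 introns 3 and 6, Rpl4 intron 3, Rpl9 intron 7 and Rpl36a intron 2 lost the call (adjusted p from 0.205 to 0.387), and Rpl19 intron 5 gained it at 20 reads (0.0429) and by chi-square (0.00319). Introns with a higher share of intermediates numbered 1, or 2 when added per gene. The share of intermediates was 0.876% before and 1.64% after induction over all reads, but 2.20% and 2.04% as a mean over introns. The order of the pools thus differed, but both summaries cover 196 introns before and 125 after induction. The weighting and the set of introns were not separated, and the cause was not tested. The other 43 values under alternatives stayed within their limits, and none reversed the direction of a tested change. Those limits were wide for coSE levels, namely the Wilson interval of 1 intron at the median depth. An induced coSE of 0.864 in place of 0.926 therefore counted as unchanged. The induced coSE of members was below that of all introns by the median over introns with at least 10 reads (0.926 against 0.947). It was above that of all introns with all reads of every listed intron added together, without a read minimum (0.864 against 0.861). The sets of introns behind these summaries thus differ.

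No paired analysis was possible because the tables pool the replicates of a condition; leaving out a replicate could not be run for the same reason. Depth limits the rest. Among the 158 members with at least 10 induced reads the median was 29 reads, at which a few reads move coSE widely. The other 58 members had fewer than 10 induced reads.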
